A study of Mus musculus with 14 samples.

Results

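The 7 genes described here, Mpo, Elane, Prtn3, Ctsg, Ms4a3, Fcnb and Serpinb1a, are commonly grouped with the primary (azurophil) granule of neutrophils. They were chosen by gene symbol, with earlier results of these data known, and all are described whatever their values. They are 7 of the 20284 genes that the arrays measured. Gene expression had been profiled on 14 single-colour arrays, 2 for each of 7 groups of purified cells from C57BL/6 mice. Granulocyte-monocyte progenitors (GMP) were taken from the marrow of wild-type (WT) animals and of animals labelled IRF8KO, sorted as CD117+ CD16/32+ cells negative for CD115, Sca-1, IL-7R and lineage markers. All other groups were wild-type. Common dendritic cell progenitors (CDP) from marrow had intermediate CD117, CD115 and CD135, and precursors of classical dendritic cells (pre-cDC) from marrow had CD11c, CD135 and CD172a without MHC class II. Classical dendritic cells (cDC) with MHC class II and either CD8 or CD4 came from spleen, and neutrophils (Neu) with CD11b and high Ly6G from marrow. Magnetic beads and flow cytometry were both used, except for the CD4+ cDC (beads alone) and Neu (flow cytometry alone). The labels give neither the ages of the mice nor the IRF8KO allele, and Ly6C+ monocytes were not analysed here.

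Azurophil granules are the first granules a developing neutrophil builds, at the promyelocyte stage. They hold myeloperoxidase, which makes hypochlorous acid from hydrogen peroxide, and a family of serine proteases that digest microbes and are cut to their active form by cathepsin C. Transcription of these genes is known to stop as the cell matures, so that a mature neutrophil carries granule protein made earlier. Among the 7 genes, Mpo encodes the peroxidase. Elane (neutrophil elastase), Prtn3 (proteinase 3) and Ctsg (cathepsin G) encode the proteases. Ms4a3 encodes a membrane-spanning protein of myeloid progenitors, Fcnb encodes ficolin B, a lectin that recognises microbial sugars, and Serpinb1a encodes a cytosolic inhibitor of the serine proteases, which is itself no granule content.

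Each gene had 1 probe, also present on the smaller array design used for the CD4+ cDC. By the RefSeq table, used for names and gene order, Mpo lies on chromosome 11, Ctsg on chromosome 14, Ms4a3 on chromosome 19, Fcnb on chromosome 2 and Serpinb1a on chromosome 13. Prtn3 and Elane are adjacent protein-coding genes on chromosome 10, with Elane following Prtn3. The promoters of the peroxidase and the 3 proteases are shown because these 4 genes moved differently at the same steps. Each is the 250 bases before the annotated start in RefSeq (GRCm38.p6), read 5′ to 3′ on the strand of the gene. These are chr11:87793534-87793783 for Mpo, chr10:79886062-79886311 for Elane, chr10:79879417-79879666 for Prtn3, all on the plus strand, and chr14:56102575-56102824 for Ctsg on the minus strand. Capitals mark GAGGAA, the core letters of sites bound by PU.1, the myeloid transcription factor encoded by Spi1.
Mpo: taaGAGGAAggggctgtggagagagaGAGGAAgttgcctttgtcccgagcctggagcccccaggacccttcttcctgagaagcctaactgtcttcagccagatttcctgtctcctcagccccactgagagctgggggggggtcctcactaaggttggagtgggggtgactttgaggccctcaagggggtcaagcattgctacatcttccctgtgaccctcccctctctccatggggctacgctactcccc
Elane: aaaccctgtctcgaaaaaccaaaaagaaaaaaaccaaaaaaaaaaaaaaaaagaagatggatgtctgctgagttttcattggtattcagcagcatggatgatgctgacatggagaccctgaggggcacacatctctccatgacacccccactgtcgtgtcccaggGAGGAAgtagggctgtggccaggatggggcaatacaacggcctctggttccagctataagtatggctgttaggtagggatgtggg
Prtn3: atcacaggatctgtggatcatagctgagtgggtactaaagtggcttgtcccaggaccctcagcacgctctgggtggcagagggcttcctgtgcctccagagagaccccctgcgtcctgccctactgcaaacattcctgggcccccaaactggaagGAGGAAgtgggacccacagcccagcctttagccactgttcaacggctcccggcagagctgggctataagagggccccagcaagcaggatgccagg
Ctsg: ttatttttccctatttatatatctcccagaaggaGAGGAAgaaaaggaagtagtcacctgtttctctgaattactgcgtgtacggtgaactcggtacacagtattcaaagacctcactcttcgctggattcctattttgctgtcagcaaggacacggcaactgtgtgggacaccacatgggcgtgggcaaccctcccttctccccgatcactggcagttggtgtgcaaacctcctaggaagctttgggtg
Promoters were found for 6 of the 7 genes. GAGGAA, searched on both strands, was present in all 4 sequences shown and absent from those of Ms4a3 and Fcnb. Of 32851 RefSeq promoters of this length, 23.3% held it. It lay 85 to 80 bases before the start in Elane and 95 to 90 bases before it in Prtn3, and farther away in Ctsg (216 to 211) and in Mpo (247 to 242 and 224 to 219). A form of the C/EBP motif, TTNNGNAA, was found in 2 of the 6, Ms4a3 and Fcnb, against 36.8% of all promoters. The MYB core AACNG was found in 5 of the 6 (all but Ms4a3), against 74.2%. The RUNX core TGTGGT and the TATA box letters TATAAA were each found in 1 of the 6, Ctsg, against 14% and 12.4%. Both matches were on the opposite strand, TGTGGT 79 to 74 and TATAAA 237 to 232 bases before the start. Elane, Prtn3 and Fcnb hold TATAAG near the start, letters that were not searched. Matches overlapped between motifs in Fcnb, where a MYB match began at the last base of a C/EBP match. A match is a description of letters and not of a bound site.

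Levels are given as log2 of the processed spot signal minus the array's own 75th percentile, so 0 is the signal of a probe at that percentile. Levels of different probes are not comparable. The 75th percentile itself ran from 508.7 to 582.3 signal units on the 4 GMP arrays but was 88.75 and 89.16 on the CDP arrays, and the other arrays lay between 147.6 and 704.8. No spot was saturated. Both GMP groups shared 1 slide, CD8+ cDC and Neu shared another, and CDP, pre-cDC and CD4+ cDC each had their own. Slide and cell type therefore cannot be told apart in the comparisons of CDP with GMP, pre-cDC with CDP, CD8+ cDC with pre-cDC and Neu with GMP. Markers of each labelled cell type were well above background on both of its arrays for every measured gene of its list, although some of these genes encode markers of the sort. This detection does not tell the groups apart, since some markers were higher in another group. The mean level of Kit was 2.03 in CDP and 3.86 in CD8+ cDC, and that of Cd4 was 3.25 in CD4+ cDC and 3.54 in Neu. Whether replicate arrays stem from different mice is not stated in the labels. The p-values thus rest on the spread between the 2 arrays of a group, pooled over all groups fitted, and this spread may be technical. The 1 probe for Irf8 was brighter on the arrays labelled IRF8KO (5.98 and 6.03) than on the WT GMP arrays (4.61 and 4.70), by 1.35 ± 0.08 (SE, adjusted p = 4.7e-05). Which exon it reads is not stated in the labels or files. The probe is thus no check of the deletion, and directions are given for the arrays labelled IRF8KO.

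Mpo was high throughout the marrow progenitors. Its level was 9.25 and 9.38 on the WT GMP arrays, 9.41 and 9.51 on the arrays labelled IRF8KO GMP, and 9.65 and 9.68 in CDP. It was 6.26 and 6.27 in pre-cDC, 3.74 and 3.79 in Neu, and -2.32 and -2.09 in CD8+ cDC. The arrays of the GMP and CDP groups lay close together without overlapping, and each of the other groups was separated from the one above it by at least 2.47. The order of CDP and GMP depended on the scaling.

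Elane did not follow the same order. Its level was 8.29 and 8.31 in WT GMP, 8.87 and 8.93 in IRF8KO GMP, 4.20 and 4.23 in pre-cDC, and 3.27 and 3.28 in CDP. In the mature cells it was 2.50 and 2.58 in Neu and 1.83 and 1.92 in CD8+ cDC. No arrays of neighbouring groups overlapped, and of the 4 genes for the peroxidase and the proteases, Elane alone was higher in pre-cDC than in CDP. Before scaling, the Elane signal was 862.2 and 858 in CDP, 884.7 and 1120 in CD8+ cDC and 968.5 and 833.8 in Neu. On the CD4+ cDC arrays it was 250.1 and 178.9. Whether the Elane probe also reads other transcripts was not tested.

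Prtn3 and Ctsg both descended from GMP through CDP and pre-cDC to Neu. For Prtn3 the level was 6.84 and 6.89 in WT GMP, 7.51 and 7.59 in IRF8KO GMP, 5.53 and 5.61 in CDP, 2.97 and 3.23 in pre-cDC, and -1.04 and -0.95 in Neu. For Ctsg it was 9 and 9.01 in WT GMP, 9.22 and 9.29 in IRF8KO GMP, 8.23 and 8.26 in CDP, 4.77 and 4.82 in pre-cDC, and 1.45 and 1.5 in Neu. Neither probe was well above background on the CD8+ cDC arrays, where the readings were -3.94 and -3.93 for Prtn3 and -4.08 and -3.76 for Ctsg.

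Ms4a3 was high in both GMP groups alone. It read 6.27 and 6.33 in WT GMP, 6.31 and 6.40 in IRF8KO GMP, 1.52 and 1.59 in CDP, 1.01 and 1.13 in pre-cDC, and 0.09 on both Neu arrays. The 2 GMP groups overlapped, and the probe was not well above background in CD8+ cDC (-5.90 and -4.44).

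Fcnb and Serpinb1a had their highest level in Neu and not in a progenitor. Fcnb read 0.85 and 0.94 in Neu, -0.03 and 0.08 in IRF8KO GMP, and -1.49 and -1.23 in WT GMP. It was well above background on 1 of the 2 pre-cDC arrays (-2.18 and -2.07) and on none of the CDP (-5.06 and -4.58) or CD8+ cDC arrays (-4.53 and -4.08), so these last groups have no order. Serpinb1a read 7.63 and 7.65 in Neu, 6.34 on both IRF8KO GMP arrays, 5.94 and 5.97 in WT GMP, 5.74 on both CDP arrays, 3.19 and 3.20 in pre-cDC, and 1.73 and 1.80 in CD8+ cDC. Serpinb1a was above background in every group, and no neighbouring groups overlapped. Close relatives, Serpinb1b and Serpinb1c, exist in the mouse, and the probe's specificity among them was not tested.

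The CD4+ cDC arrays were of the smaller design and entered no test. On their own 75th percentile, Mpo read -2.12 and -1.15, Elane -1.76 and -1.49, Serpinb1a 1.05 and 1.20, and the other 4 genes -2.75 or lower. The summed level of the 7 genes, in multiples of each array's 75th percentile, ran from 2.76 to 3.34 in CD4+ cDC and from 7.30 to 7.71 in CD8+ cDC. It was 1700 to 1750 in WT GMP, 2120 to 2170 in IRF8KO GMP, 1220 to 1240 in CDP, 143 to 144 in pre-cDC and 224 to 227 in Neu. The largest term in Neu was Serpinb1a (mean level 7.64), no granule content, followed by Mpo (3.76). In pre-cDC it was Mpo (6.27), followed by Ctsg (4.79). The sum adds unlike probes and gives no order of Neu and pre-cDC for the granule contents.

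**Figure D1:**
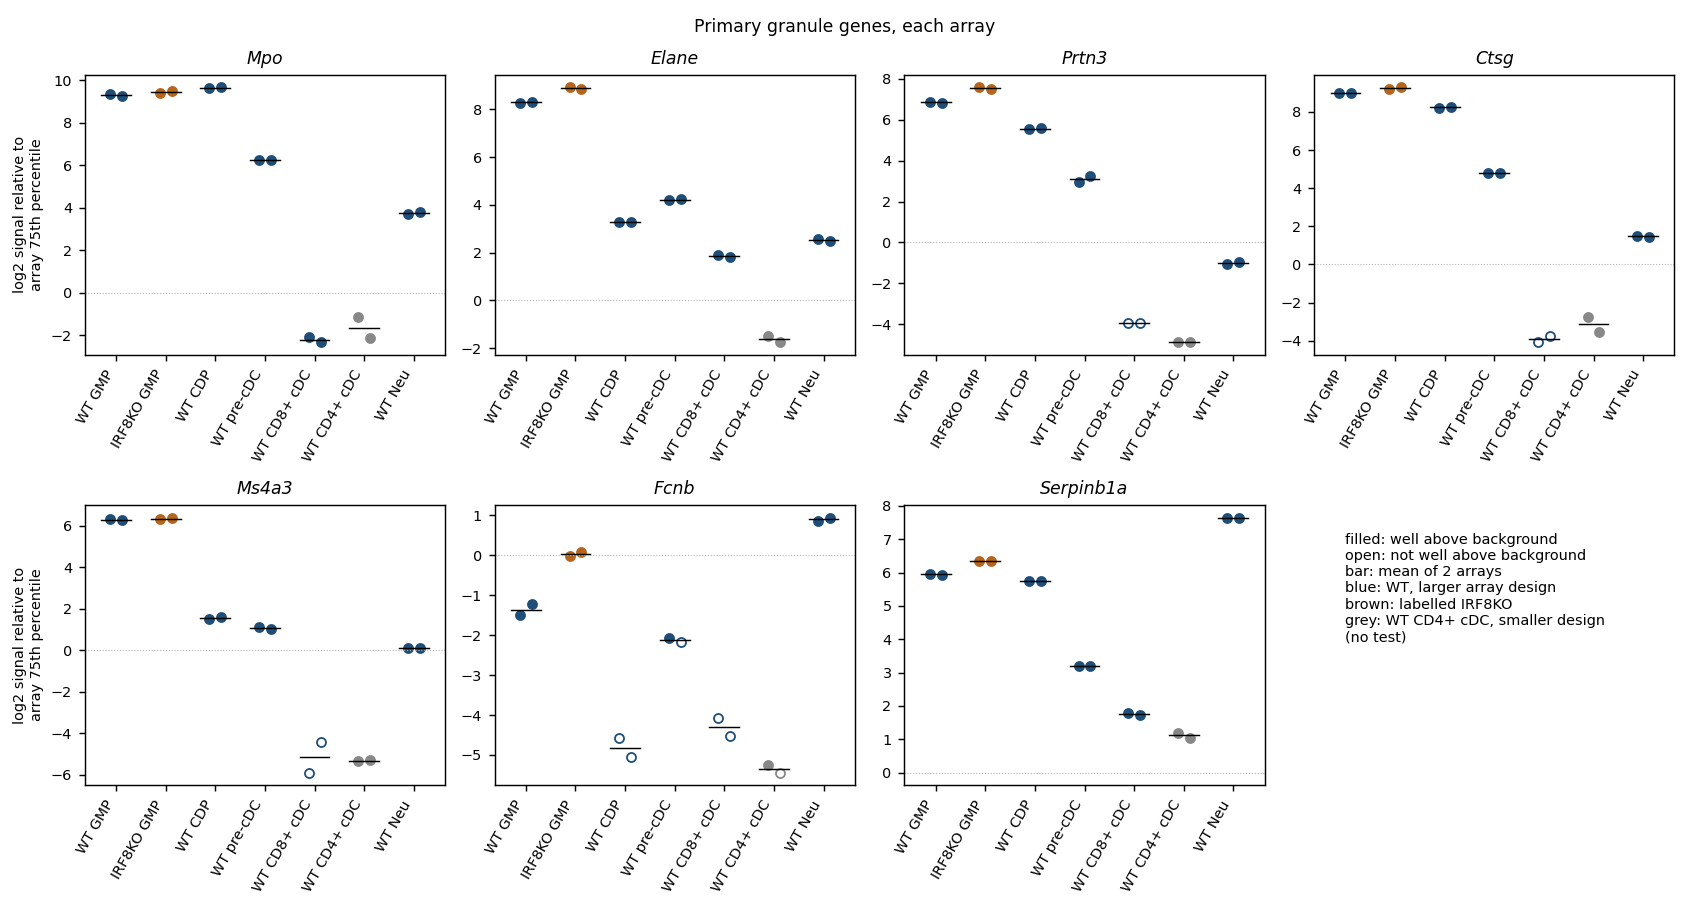
Level of each of the 7 genes on every array (log2 signal relative to the array's 75th percentile, 1 panel per gene with its own axis), for 7 groups of 2 arrays, with bars at the group means and open points where the probe was not well above background. Mpo stays near 9.31 to 9.67 in the GMP and CDP groups, Elane drops to 3.27 in CDP, and Fcnb and Serpinb1a are highest in Neu.

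The arrays labelled IRF8KO were compared with WT GMP to ask whether the genotype label moves these genes within the GMP gate. Of the 7 genes, all of them well above background in both groups, 4 rose and none fell by limma at an adjusted p under 0.05 (5 and 0 at an unadjusted p under 0.05), where 12.5% of the 12156 genes tested rose and 8.59% fell. The median difference of the 7 was 0.38 on the log2 scale, against 0.03 over all genes. Fcnb rose by 1.39 ± 0.20 (SE, n = 2 arrays per group here and below, adjusted p = 0.00264). The elastase gene Elane rose by 0.60 ± 0.06 (adjusted p = 0.000698), its neighbour Prtn3 by 0.69 ± 0.10 (adjusted p = 0.00243) and the inhibitor gene Serpinb1a by 0.38 ± 0.06 (adjusted p = 0.00305). The other 3 did not pass the test: Ctsg differed by 0.25 ± 0.10 (adjusted p = 0.129), Mpo by 0.15 ± 0.09 (adjusted p = 0.317) and Ms4a3 by 0.06 ± 0.39 (adjusted p = 0.937). For Ctsg and Mpo the arrays of the 2 groups did not overlap, with gaps of 0.21 and 0.03. Such separation of 2 arrays from 2 has an exact two-sided permutation p of 0.333, so it adds no support. The share of all genes without overlap was not counted. The SE of Ms4a3 is pooled over the groups fitted together. It carries the spread of readings at background in CD8+ cDC (SD 1.03), against SDs of 0.04 in WT GMP and 0.06 in IRF8KO GMP.

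From the 4 arrays of the shared slide alone, the same 4 genes were called (adjusted p = 0.0228 to 0.0424). The call for Serpinb1a was lost when arrays were scaled to their median (0.46, adjusted p = 0.0647). Genes of later neutrophil granules moved with the same contrast. All 7 tested of 8 secondary and tertiary granule genes rose, with a summed level of 2.86 to 2.98 in WT GMP and 9.15 to 9.40 in IRF8KO GMP. Ltf, Ngp, Mmp9 and Cd177 were not above background in WT GMP, nor was Mmp9 in IRF8KO GMP. Of 4 neutrophil markers, 2 rose, and the summed level went from 30 to 32.5 in WT GMP to 53.1 to 54 in IRF8KO GMP. Markers of 3 other lineages fell, all 6 for basophils and mast cells (at least 104 in WT GMP, 34.3 to 34.9 in IRF8KO GMP), all 3 for eosinophils (77.2 to 77.6 and 21.8 to 23.4) and all 5 for red cells (43.8 to 44.3 and 3.83 to 3.89). Of 4 monocyte markers 3 rose and 1 fell (22 to 24 and 77.8 to 85.1). Dendritic lists also moved. All 3 CDP markers rose (56.9 to 57.9 in WT GMP and 97.9 to 98.1 in IRF8KO GMP), as did all 3 tested of 4 pre-cDC markers (11.3 to 11.5 and 27.5 to 28), with Flt3, Csf1r, Itgax and Sirpa among them. Of the lists for CD4+ and CD8+ cDC, which share Itgax, 2 of 4 tested rose with 1 down and 1 of 1 rose. The part of these shifts in the granule gene differences was not tested, and in such bulk samples fewer cells of a type and less RNA per cell cannot be told apart.

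CDP were compared with GMP to ask how the granule genes change on the step from the granulocyte-monocyte progenitor to the dendritic cell progenitor. Elane fell by 5.03 ± 0.06 on the log2 scale (32.7-fold, adjusted p = 7.84e-09) and Ms4a3 by 4.74 ± 0.39 (26.8-fold, adjusted p = 1.71e-05). Prtn3, the gene next to Elane, fell by 1.29 ± 0.10 (adjusted p = 9.68e-06) and Ctsg by 0.76 ± 0.10 (adjusted p = 0.000245). Fcnb, not well above background in CDP, was at least 3.49-fold lower (adjusted p = 2.61e-06), and Serpinb1a fell by 0.21 ± 0.06 (adjusted p = 0.00938). Mpo rose by 0.35 ± 0.09 (adjusted p = 0.00852), a direction that depended on the scaling. In all, 1 of the 7 rose and 6 fell (median -1.29), where 50.2% of the 11899 genes tested rose and 26.2% fell and the median of all genes was 0.29. The share of higher genes among those called was 65.7%, and 40.3% to 52.5% with the percentile taken over commonly detected probes (those detected on all 12 arrays), quantile normalization or the authors' table.

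The difference of Mpo was -0.18 with normexp background correction (adjusted p = 0.0921) and -0.14 with the percentile over commonly detected probes (adjusted p = 0.182). It was -1.46 with quantile normalization (adjusted p = 7.36e-07) and -1.19 in the authors' table (adjusted p = 2.61e-06). So no direction holds for Mpo across these scalings, while Elane stayed between -5.78 and -5.03 and Ms4a3 between -5.23 and -4.74. Fcnb was at 0.05 with normexp (adjusted p = 0.694). Serpinb1a lost its call with array medians (-0.22, adjusted p = 0.161) and without replicate 1 of WT GMP (-0.20, adjusted p = 0.0554), and Mpo without replicate 2 of WT GMP (0.29, adjusted p = 0.059).

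Markers of other cell types also differed between CDP and GMP. All 4 neutrophil markers fell, with a summed level of 30 to 32.5 in GMP and 16.3 to 16.8 in CDP. All 6 basophil and mast cell markers (at least 104 in GMP, at most 4.88 in CDP), all 3 eosinophil markers (77.2 to 77.6 and 2.46 to 2.81) and all 5 red cell markers (43.8 to 44.3 and 2.21 to 2.26) fell too, while all 4 monocyte markers rose (22 to 24 and 335 to 341). Of 4 tested secondary and tertiary granule genes 1 rose and 3 fell (2.86 to 2.98 and 1.05 to 1.10). Of those called lower, Camp (0.55) and Chil3 (0.09) turned sign with normexp. All 4 pre-cDC markers rose (11.3 to 11.5 and 77 to 78.6). S100a8, Cxcr2, Fcer1a, Ms4a2 and Klf1 were not above background in CDP. The part of these markers in the granule gene differences was not tested.

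The unequal change of the adjacent genes Elane and Prtn3 can be read within each array, where scaling cancels. Elane minus Prtn3, on the log2 scale, was 1.41 and 1.48 in WT GMP, 1.34 and 1.36 in IRF8KO GMP, and -2.25 and -2.34 in CDP. It was 1.24 and 1 in pre-cDC, 3.62 and 3.45 in Neu and 5.86 and 5.76 in CD8+ cDC, the last with Prtn3 not above background. The offset itself is no ratio of transcripts, but its shift between groups shows that the 2 probes changed unequally. The CDP arrays alone had a negative offset, but those of Neu and of CD8+ cDC also stood apart from every other group. With 2 arrays a group, an exact two-sided permutation test cannot give a p below 0.333.

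**Figure D2:**
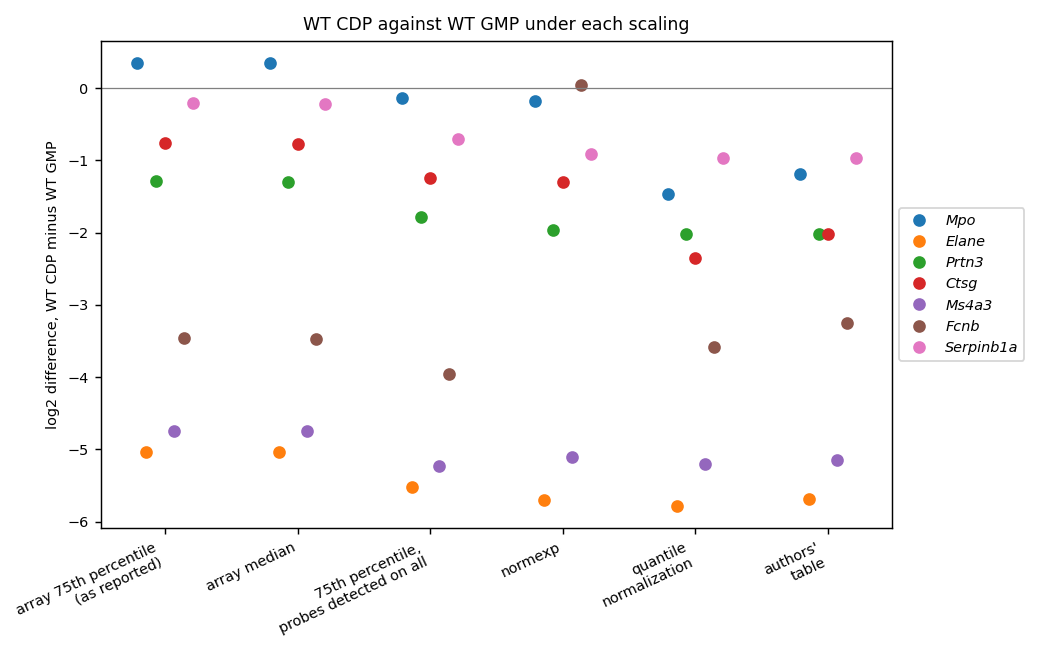
Difference of WT CDP minus WT GMP for each of the 7 genes (log2, vertical axis) under 6 ways of scaling or correcting the arrays (horizontal axis), 1 point per gene and setting. Mpo lies at 0.35 as reported and at -1.46 with quantile normalization, and Elane and Ms4a3 lie below -4 under all 6.

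Pre-cDC were compared with CDP, the next step of the dendritic lineage. Ctsg fell by 3.45 ± 0.10 (adjusted p = 4.94e-07) and Mpo fell by 3.40 ± 0.09 (adjusted p = 4.39e-07). Serpinb1a fell by 2.54 ± 0.06 (adjusted p = 2.3e-07) and Prtn3 by 2.47 ± 0.10 (adjusted p = 7.16e-07). Elane instead rose by 0.94 ± 0.06 (adjusted p = 5.23e-06), and by 0.43 to 1.45 over the settings that kept all arrays. Ms4a3 did not pass the test (-0.48 ± 0.39, adjusted p = 0.276), though it did with normexp (-0.20, adjusted p = 0.0378), with array medians (-1, adjusted p = 0.0474) and in the fit of these 4 arrays alone (-0.48, adjusted p = 0.0172). Fcnb was not tested here, being above background on 1 pre-cDC array alone, and was at least 2.06-fold higher in pre-cDC (but at -0.02 with normexp). Of the 6 genes tested, 1 rose and 4 fell (median -2.51), where 24.6% of the 11481 genes tested rose and 58.0% fell and the median of all genes was -0.495. The higher genes were 29.8% of those called, but 16.2% with array medians and 51.2% with the percentile over commonly detected probes.

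Markers of other cell types moved in both directions at this step. All 3 tested of 4 neutrophil markers rose, with a summed level of 16.3 to 16.8 in CDP and 82.2 to 84.5 in pre-cDC, and Cxcr2 was not above background in either group, nor S100a8 in CDP. Of 6 tested secondary and tertiary granule genes 5 rose and 1 fell, from a summed 1.05 to 1.10 in CDP to 10 to 10.5 in pre-cDC, where Mmp8 and Mmp9 were not above background. In CDP, Ltf, Camp, Ngp, Mmp9, Cd177 and Chil3 were not above background. Of 5 tested basophil and mast cell markers 4 rose (4.72 to 4.88 in CDP and 32.6 to 37.2 in pre-cDC). Of 4 monocyte markers 1 rose and 2 fell, F13a1 by 2.64 and Cx3cr1 by 0.48, and the summed level went from 335 to 341 in CDP to 132 to 136 in pre-cDC. Cx3cr1 turned sign under 3 scalings (up to 0.16), and the riser, Klf4, with array medians (-0.03). Of 3 GMP markers 2 fell (from 97 on both CDP arrays to 11.8 to 12.2). The part of these markers in the rise of Elane and in the fall of Mpo, Ctsg, Prtn3 and Serpinb1a was not tested.

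CD8+ cDC were compared with pre-cDC, the last step to the mature dendritic cell, taken across marrow and spleen. All 6 genes tested fell (median -6 with genes not above background at their bound), where 33.9% of the 12597 genes tested fell and 39.2% rose (median 0.078 over all genes). The higher genes were 53.6% of those called, and 66.9% with array medians. Mpo fell by 8.47 ± 0.09 (354-fold, adjusted p = 3.49e-09), Ctsg was at least 384-fold lower (adjusted p = 3.49e-09) and Prtn3 at least 126-fold lower (adjusted p = 5.75e-09). Ms4a3 was at least 32.6-fold lower (adjusted p = 4.24e-06). The fall was smaller for Elane, by 2.34 ± 0.06 (adjusted p = 8.38e-08), and for the inhibitor gene Serpinb1a, by 1.43 ± 0.06 (adjusted p = 4.04e-07). Both probes stayed above background in CD8+ cDC, and their specificity there was not tested. Fcnb was not tested and was at least 3.56-fold lower. All tested markers of neutrophils (3 of 4), secondary and tertiary granules (5 of 8), basophils and mast cells (5 of 6) and monocytes (4 of 4) fell at this step as well. Their summed levels went from 82.2 to 84.5 down to 36.2 to 45.6, from 10 to 10.5 down to 1.79 to 1.82, from at least 32.6 down to at most 0.282, and from at least 132 down to at most 5.44. Both tested eosinophil markers fell (3.29 to 3.42 in pre-cDC and 0.305 to 0.359 in CD8+ cDC). Of 4 tested red cell markers 3 fell and 1 rose, with a summed level of 5.16 to 5.28 in pre-cDC and 164 to 177 in CD8+ cDC. The summed rise came from Hba-a1 alone (mean level 1.85 in pre-cDC and 7.41 in CD8+ cDC). Of 2 tested B cell markers 1 rose, Ms4a1, at least 33-fold. In CD8+ cDC, Mmp8, Mmp9, Cd177, Mcpt8, Cpa3, Fcer1a, Ms4a2, Gata2, F13a1 and Klf1 were not above background. The part of these markers in the fall of the granule genes was not tested.

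Neu were compared with GMP to set the mature granulocyte against the progenitor. The peroxidase and protease genes, with Ms4a3, fell, and Fcnb and Serpinb1a rose. Prtn3 fell by 7.85 ± 0.10 (adjusted p = 5.63e-10), Ctsg by 7.53 ± 0.10 (adjusted p = 7.06e-10) and Ms4a3 by 6.20 ± 0.39 (adjusted p = 1.4e-06). Elane fell by 5.76 ± 0.06 (adjusted p = 5.39e-10) and Mpo by 5.55 ± 0.09 (adjusted p = 1.32e-09). The ficolin gene Fcnb rose by 2.25 ± 0.20 (adjusted p = 1.12e-05) and Serpinb1a by 1.69 ± 0.06 (adjusted p = 3.3e-08). So 2 of the 7 rose and 5 fell (median -5.76), in a comparison in which 46.9% of the 12520 genes tested rose and 44.8% fell (median 0.073). These directions were the same in every setting that kept all arrays, with Fcnb between 1.68 and 2.41 and Serpinb1a between 1.14 and 1.69.

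Marker lists moved with this comparison as well. All 4 neutrophil markers rose (30 to 32.5 in GMP and 3550 to 3810 in Neu), as did all 8 secondary and tertiary granule genes (2.86 to 2.98 and 8320 to 8990). All 6 basophil and mast cell markers fell (at least 104 and at most 2.15), as did all 3 eosinophil markers (77.2 to 77.6 and 0.416 to 0.452). Of 5 red cell markers 1 rose and 4 fell (43.8 to 44.3 and 7.07 to 7.36), and of 4 monocyte markers 1 rose and 3 fell (22 to 24 and 1.17 to 1.31). Fcer1a, Ms4a2, Gata2, Epx, Prg3, Klf1, Epor, Gata1, Ccr2 and Cx3cr1 were not above background in Neu. The part of these markers in the granule gene differences was not tested.

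Neu were also compared with CD8+ cDC, which share their slide. From the 4 arrays of that slide alone, all 7 were also called (adjusted p = 8.83e-05 to 0.00548). All 7 genes were higher in Neu, where 42.8% of the 12817 genes tested were higher and 42.4% lower. The median of the 7 was 4.85 with genes not above background at their bound, against 0.056 over all genes. Mpo was higher by 5.96 ± 0.09 (adjusted p = 1.15e-09) and Serpinb1a by 5.88 ± 0.06 (adjusted p = 2.99e-10). Ctsg was at least 38.5-fold, Fcnb at least 28.9-fold, Ms4a3 at least 16.6-fold and Prtn3 at least 7.36-fold higher. Elane differed least, by 0.66 ± 0.06 (adjusted p = 2.45e-05). The comparisons share arrays (WT GMP serve in 3 of the 6 and CDP, pre-cDC, CD8+ cDC and Neu in 2 each), so their values are given side by side and are not independent.

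**Figure D3:**
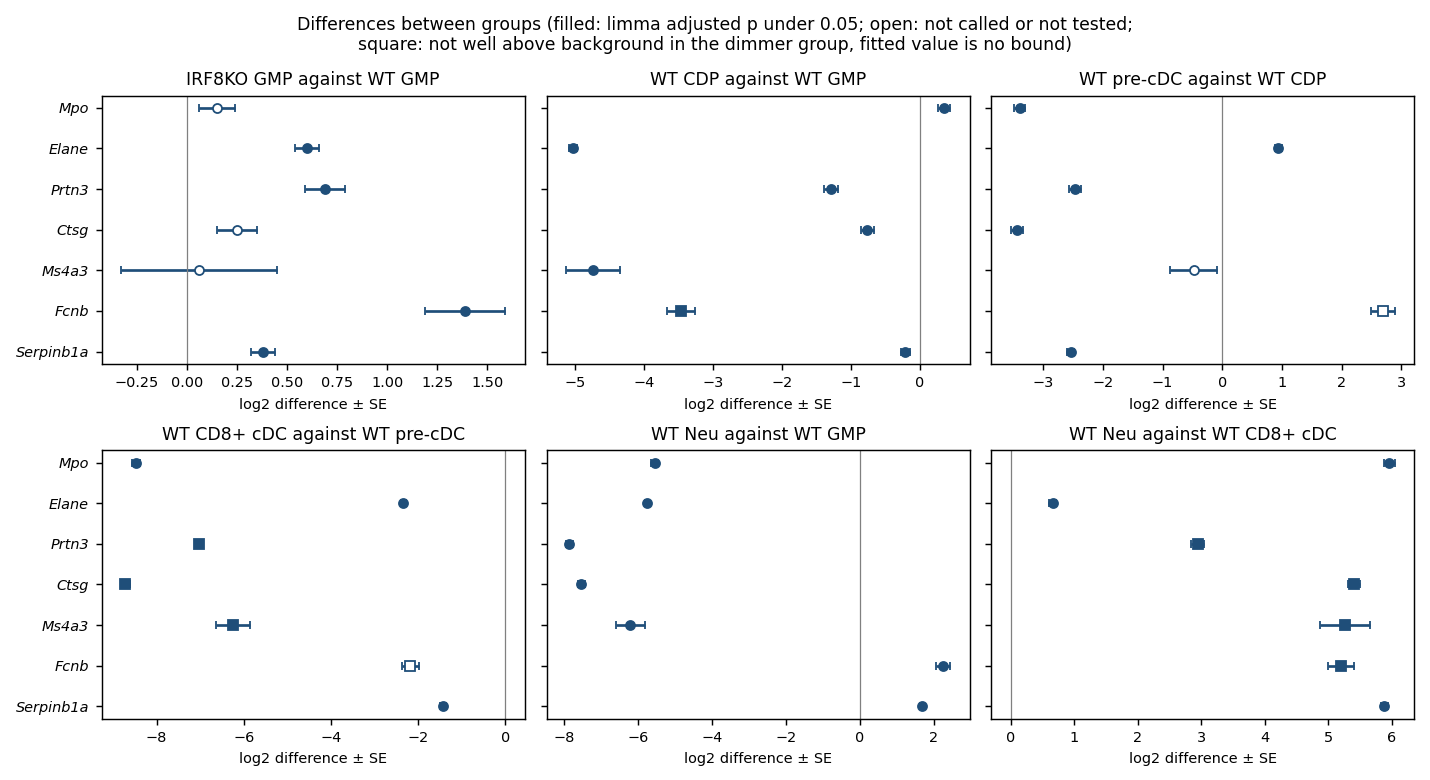
Difference between the 2 groups of each of 6 comparisons (log2, horizontal axis, with its SE) for the 7 genes, 1 panel per comparison with its own axis. Filled symbols passed an adjusted p under 0.05, and squares mark genes whose probe was at background in the dimmer group, so that the fitted value is no bound. Elane lies at 0.94 and Mpo at -3.40 in pre-cDC against CDP, on opposite sides of 0.

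Other genes of the granule pathway were grouped by role into other granule contents, protease processing and packing, inhibitors of serine proteases, and transcription factors of the promyelocyte stage. On the arrays labelled IRF8KO, 4 of 9 tested content genes rose and 1 fell, where 12.5% of all genes tested rose and 8.59% fell. The lysozyme genes Lyz1 and Lyz2, near copies whose probes may share signal, rose by 1.02 ± 0.08 and 0.99 ± 0.13. Prss57, a further granule serine protease gene on chromosome 10 near Elane, rose by 0.69 ± 0.10, and Cd63, a granule membrane protein gene, fell by 0.60 ± 0.08 (not called with array medians). None of the 9 processing and packing genes was called by limma (2 rose and none fell at an unadjusted p under 0.05), among them Ctsc, which encodes the activating protease, and Srgn, which encodes the granule proteoglycan. Of 4 inhibitors, 1 rose, Slpi (0.78 ± 0.07), the gene of a secreted elastase inhibitor. Of 7 transcription factors 4 rose and none fell, among them Gfi1 (1.02 ± 0.20), Cebpb (0.90 ± 0.13), Cebpa (0.71 ± 0.08) and Spi1 (0.44 ± 0.08, not called with array medians).

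From GMP to CDP the same groups split, where 50.2% of all genes tested rose and 26.2% fell. Of 9 content genes 4 rose and 3 fell, with Cd63 down by 4.98 ± 0.08 and Prss57 by 2.13 ± 0.10. Of 9 processing and packing genes 2 rose and 3 fell. The called rises of Cst7 (0.34, down to -0.40), Ctsd (0.31, down to -0.58) and the factor gene Spi1 (0.40, down to -0.09) turned sign under other scalings. Srgn fell by 1.26 ± 0.07 and the chaperone gene Calr by 0.74 ± 0.09, and Ap3b1, which encodes a subunit of the sorting adaptor AP-3, rose by 1.22 ± 0.06. Of 4 inhibitors 1 rose, Slpi (2.28 ± 0.07), and 3 fell, among them Serpinb1c, which was at least 12.2-fold lower. The factors showed the widest range. Cebpe, needed for granulocyte maturation, fell by 6.50 ± 0.16 and Gfi1 by 3.28 ± 0.20, Cebpa fell by 1.42 ± 0.08 and Runx1 rose by 1.43 ± 0.10, with 3 of 7 up and 4 down.

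From CDP to pre-cDC, contents split again with 3 up and 4 down of 9. Lyz2 rose by 2.40 ± 0.13 and Lyz1 by 1.67 ± 0.08, and Prss57 fell by 2.15 ± 0.10. Of 9 processing genes 1 rose and 6 fell (median -0.63, against -0.495 over all genes, of which 24.6% rose and 58.0% fell), with Cst7 (-2.25 ± 0.11), which encodes cystatin F, an inhibitor of cathepsin C, and Srgn (-2.04 ± 0.07) among the 6. Calr (-0.45, up to 0.20) turned sign and Hax1 (-0.63) lost its call with the percentile over commonly detected probes, quantile normalization and the authors' table. Cd63, among the contents, turned sign with the first of these (up to 0.14), and the inhibitor gene called higher, Serpinb1c, with normexp (-0.06). Of 3 tested inhibitors 1 rose and 2 fell, with Slpi down by 2.53 ± 0.07. Among the 7 factors 3 rose and 3 fell. Cebpe rose by 1.37 ± 0.16, while Gfi1 fell by 2.09 ± 0.20 and Myb by 1.98 ± 0.08.

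In CD8+ cDC against pre-cDC all 7 factors fell, with Cebpa down by 3.36 ± 0.08, Cebpe by 3.29 ± 0.16 and Gfi1 at least 7.31-fold lower. Contents common to lysosomes of other cells rose there, 5 of 9 with 4 down, including Gusb (3.05 ± 0.07), the gene of beta-glucuronidase, and Fuca1 (2.61 ± 0.07), the gene of a fucosidase. Of 9 processing genes 2 rose and 5 fell, and Cst7 fell by 6.25 ± 0.11. Of 4 inhibitors 2 rose and 2 fell. Over all genes tested at this step, 39.2% rose and 33.9% fell.

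In Neu against GMP, 7 of 9 contents rose and 2 fell, where 46.9% of all genes tested rose and 44.8% fell. The rises were opposite to the proteases described above. Lyz2 rose by 6.59 ± 0.13, Lyz1 by 5.16 ± 0.08 and Ctsd, the cathepsin D gene, by 2.78 ± 0.07, while Prss57 fell by 3.89 ± 0.10. Processing genes split with 4 up and 5 down. Cst7 fell by 7.46 ± 0.11, Calr by 4.23 ± 0.09 and the chaperone gene Canx by 2.89 ± 0.08, and Unc13d, which encodes a factor of granule release, rose by 2.56 ± 0.08. Of 4 inhibitors 3 rose and 1 fell, with Slpi up by 5.46 ± 0.07 and Serpinb6a by 2.35 ± 0.09. Of 7 factors 3 rose and 3 fell. Cebpe rose by 3.33 ± 0.16 and Spi1 by 2.52 ± 0.08, and Myb fell by 3.39 ± 0.08. The called rise of Srgn (0.17, down to -0.38) turned sign under other scalings. Against CD8+ cDC, Neu had 6 of 7 factors higher and none lower, 3 of 4 inhibitors higher and 1 lower, 5 of 9 contents higher and 4 lower, and 5 of 9 processing genes higher and 3 lower, where 42.8% of all genes were higher and 42.4% lower. Man2b1 (-0.24, up to 0.13) turned sign with quantile normalization and in the authors' table.

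**Figure D4:**
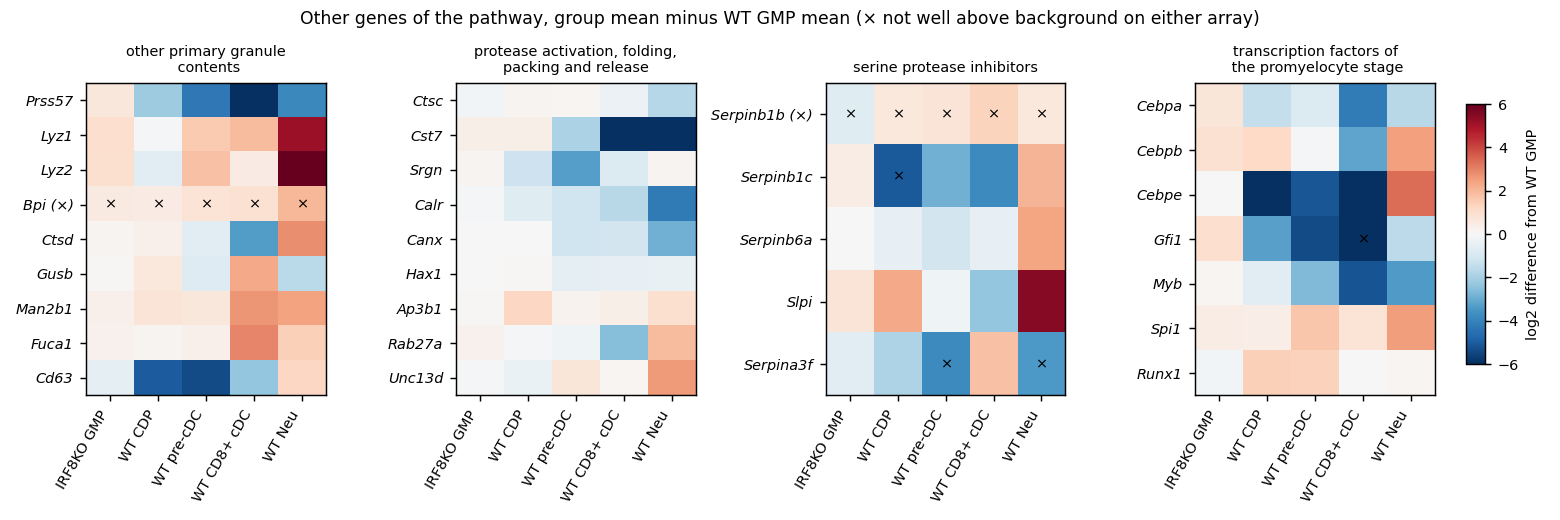
Group mean minus WT GMP mean (log2, colour scale ending at -6 and 6, in red above and in blue below WT GMP) for other genes of the pathway in 4 panels by role, with columns for 5 groups of 2 arrays. A cross marks a gene not well above background on either array of that group. Cebpe is 6.50 below WT GMP in CDP and 3.33 above it in Neu.

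Among themselves, the 7 genes fell into unequal sets over the 12 arrays of the larger design. Pearson correlations of the levels ranged from 0.167 to 0.992 over the 21 pairs (median 0.66), a description that rests on 6 groups sharing arrays and scaling. Mpo with Ctsg gave the highest value, 0.992, and Prtn3 with Ctsg 0.989, whereas Mpo with Elane gave 0.698. Elane was closest to Ms4a3 (0.913), and Fcnb with Prtn3 gave the lowest value, 0.167. With the mean of the other 6, Ms4a3 correlated at 0.979 and Fcnb at 0.344. Of 13545 other genes compared, those most like the mean of the 7 over these 12 arrays were Tcp11 (r = 0.994), Lonrf3 (0.988), Ntpcr (0.986), Zfp507 (0.986), Kif13a (0.983), Ccl25 (0.981), Cdk2 (0.979) and Ikbke (0.977). In CD8+ cDC, Prtn3, Ctsg, Ms4a3 and Fcnb were not well above background. Lonrf3 (mean -5.18), Zfp507 (-6.08) and Ikbke (-4.69) lay below the lowest signal so marked there (-3.82 and -4.1). These correlations thus rest in part on readings at background.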

How the data were processed

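Per the labels' protocols, total RNA from the sorted cells was amplified and labelled with a kit for small inputs, and it was read on Agilent arrays with 1 colour. RNA had been extracted with either of 2 kits, with no note of which sample had which. The deposited scanner values are spot intensities from Agilent Feature Extraction 10.7.3.1, per the file headers. The processed signal had background removed within each array, without normalization across arrays, and flags mark outliers and spots above background. The authors' deposited table holds intensities on a linear scale; its making is not described in the labels, but its sorted values are the same in every column (median 46.02), and each column ranks probes as that array's processed signal does.

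Control spots and flagged outliers were left out. Spots of 1 probe were averaged as log2 processed signals, from which the 75th percentile of the array's spots was subtracted. Accessions on the arrays were matched to symbols in the RefSeq table of GRCm38.p6 (26762 probes with 1 symbol, 20284 genes), and the brightest probe stood for a gene with several. No column of values was left unmapped. A probe was well above background where a share of at least 0.5 of its spots was so marked. The 12 arrays of the larger design were fitted together with limma 3.58.1 (lmFit, contrasts.fit and eBayes, two-sided, prior degrees of freedom 1.29) in R 4.3.3. P-values were adjusted (Benjamini-Hochberg) over all genes that were well above background on every array of either group, with calls at an adjusted p under 0.05. SE is from this fit, and n = 2 arrays per group throughout. At-least folds replace each dim array's reading by the larger of that reading and the lowest signal that counted as well above background on that array, and then compare group means. Plots were made in Python 3.11.15 and matplotlib 3.10.9. The fit was tested on simulated data.

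The text names all 7 genes, up to 4 called genes per pathway list and comparison with the largest change, and the 8 genes most like the mean of the 7. Marker genes not above background, and some other marker genes, are also named. Some genes of the lists are not reported here by name. The members and lists were chosen with earlier results of these data known. Alternatives were normexp (offset 50, on median spot signals, since the planned mean signals were not used here), array medians, the percentile over commonly detected probes (on all 12 arrays), quantile normalization, the authors' table, the mean over probes, no filter, 2-group fits, the replicate number as a block, and leaving out each array.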

Additional observations from a re-analysis of the deposited data

How the results depend on the processing

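Precision is limited by 2 arrays per group and by signal near background, which leaves Fcnb and, in CD8+ cDC, Prtn3, Ctsg and Ms4a3 with bounds. In each of the 6 comparisons, the count of the 7 genes called stayed within 1.5 times under every alternative run. For IRF8KO GMP against WT GMP it was 4, and 3 with array medians. The directions that turned were those of Mpo and Fcnb in CDP against GMP: Mpo stood at -0.18 with normexp, -0.14 with the percentile over commonly detected probes, -1.46 with quantile normalization and -1.19 in the authors' table, against 0.35 as reported, and Fcnb at 0.05 with normexp. The cause was not tested. Among uncalled or untested differences, Ms4a3 in IRF8KO GMP also changed sign (-0.08 to 0.14), as did Ms4a3 (-1 to 0.03) and Fcnb (-0.02 to 3.20) in pre-cDC against CDP. Fcnb passed the test in pre-cDC against CDP and in CD8+ cDC against pre-cDC with no filter on dim probes (2.70 and -2.18) and without pre-cDC replicate 2 (2.75 and -2.23), where more genes enter the test. Of the other pathway genes, 10 were called for IRF8KO GMP against WT GMP and 16 with normexp. Over all genes that comparison called 2560, but 1160 with array medians, 1786 within the shared slide and 1468 to 1521 when any 1 of its arrays was left out. Its median over all genes was 0.03, and 0.106 with array medians.

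The sample titles number the replicates as experiments, and whether equal numbers pair arrays across groups is not stated. The difference of replicate 2 minus replicate 1 was taken within each group and correlated between groups over 8716 genes. These 15 correlations ranged from -0.211 to 0.077, and none exceeded 0.1. No shared difference of the replicate numbers was thus seen. Such values cannot show whether arrays of equal number came from the same experiment. With the replicate number as a block, all genes called for IRF8KO GMP against WT GMP came to 2137, and the 7 genes had 4, 7, 5, 6, 7 and 7 calls over the 6 comparisons, as without it. Slide as a random block was not run, since each group lay on 1 slide.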
